A study of Mus musculus with 5 samples.

Results

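Total RNA was compared between mouse tissue with and without induced deletion of Ghr, the growth hormone receptor gene, and the values of 9 neuroendocrine and synaptic vesicle genes were read in every library. The 9 genes were Chga, Chgb, Scg2, Scg3, Scg5, Syp, Snap25, Snap91 and Insm1, all matched by symbol among the 51912 gene IDs of each library's table. Such genes are known from cells that store signalling molecules in vesicles and release them on a stimulus, namely neurons and neuroendocrine cells. Chromogranins and secretogranins fill the dense core granules that hold hormones and peptides. Synaptophysin sits in the membrane of small synaptic vesicles, SNARE proteins fuse vesicles with the plasma membrane, and clathrin adaptors retrieve the membrane afterwards. In the prostate, neuroendocrine cells are a rare population of the epithelium, autonomic nerves supply the gland, and tumours driven by SV40 T antigen can take on neuroendocrine features.

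The 3 libraries labelled Ghr deletion came from male mice aged 7 months that were Ghrflox/flox and carried both ROSA26Cre-ERT2+/0 and the transgene SV40 C3(1) T-antigen+/0. The 2 tamoxifen control libraries came from males of the same age with the same floxed alleles and the same transgene, and their labels list no Cre. Tamoxifen, which activates the Cre-ERT2 fusion protein, was given to all 5 mice at 250 mg/kg on 5 days, and tissue labelled dorsolateral prostate was collected 1 month later and frozen. The ROSA26 locus is active in most cell types, so the induced Cre is not limited to prostate cells, while the C3(1) promoter directs T antigen to prostate epithelium. Effects of Cre and of Ghr loss cannot be told apart, because the controls carry neither. The design text calls the libraries biological replicates.

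Total counts were 28536656, 37910328 and 33414080 in deletion replicates 1, 2 and 3, against 47656216 and 13812483 in control replicates 1 and 2. Values below are expected counts, or CPM, which are counts per 1000000 of the library's total, scaled by the trimmed mean of M values (TMM). A count of 3 in a library, used here as the floor of detection, stood for 0.0556 to 0.105 CPM in the deletion libraries and for 0.128 and 0.145 CPM in the controls. Pbsn, the probasin gene that marks prostate epithelium, had 4, 8 and 3 counts in the deletion libraries, against 411 and 1 in the controls. Of 7 prostate genes, 5, 3 and 5 had more than 3 counts in the deletion libraries, against 7 and 3 in the controls, and their sum was 171, 134 and 42.3 CPM in the deletion libraries against 4552 and 43.7 CPM in the controls. In control replicate 1 the single gene Spink1 gave 4388 CPM of that sum. Most of the sum outside control replicate 1 came from Fkbp5, which many tissues express. The sum over 8 seminal vesicle genes was 274173, 341188 and 8832 CPM in the deletion libraries and 718509 and 18531 CPM in the controls. In all deletion libraries 5 of the 8 genes lay below both controls, against 10.2% of the 18615 genes that passed a filter on low counts. Control replicate 1 thus stood apart from the other libraries on both lists, and deletion replicate 3 and control replicate 2 were low in seminal vesicle genes. Ghr had 13.7 ± 6.55 CPM in the deletion libraries (SD, n = 3) and 22.8 ± 11.9 CPM in the controls (SD, n = 2), with overlapping groups (edgeR quasi-likelihood test over all genes, Benjamini-Hochberg adjusted p = 0.995). The labels name no deleted exon, so counts over the whole gene do not test the deletion itself.

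The 9 genes were put together with results of this same comparison in view, so their values are given as a description without a test. They were low throughout. In deletion replicates 1, 2 and 3 the number with more than 3 counts was 4, 7 and 8 of 9, against 0 of 9 in control replicate 1 and 3 of 9 in control replicate 2. Control replicate 1 had the highest total count of the 5 libraries. Of that total 74.7% lay in the 50 most abundant genes, against 22.7% to 50.9% in the other libraries. After TMM scaling, a count of 3 stood for 0.105, 0.0939 and 0.0556 CPM in deletion replicates 1, 2 and 3. It stood for 0.128 and 0.145 CPM in control replicates 1 and 2. The floor thus lay lower in every deletion library than in either control. Among the deletion libraries more of the 9 genes were over the floor where it was lower, but not between the controls. The part of the floor in these numbers was not tested. In all 3 deletion libraries CPM lay above both controls for 5 of the 9 genes: Chga, Chgb, Scg5, Syp and Snap91. For Chga this rests on 1 count, or 0.0350 CPM, in deletion replicate 1, which is less than 3 counts stand for in either control. Over the 29569 genes with at least 1 count, 7.91% lay above both controls in all 3 deletion libraries. Among the 6 of the 9 genes that passed the filter on low counts the number was 4, and over all 18615 genes that passed it 9.43% lay above both controls. The contrast served to choose the genes, so nothing is read from these shares. In bulk tissue, fewer cells of a type and less RNA per cell cannot be told apart.

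**Figure D1:**
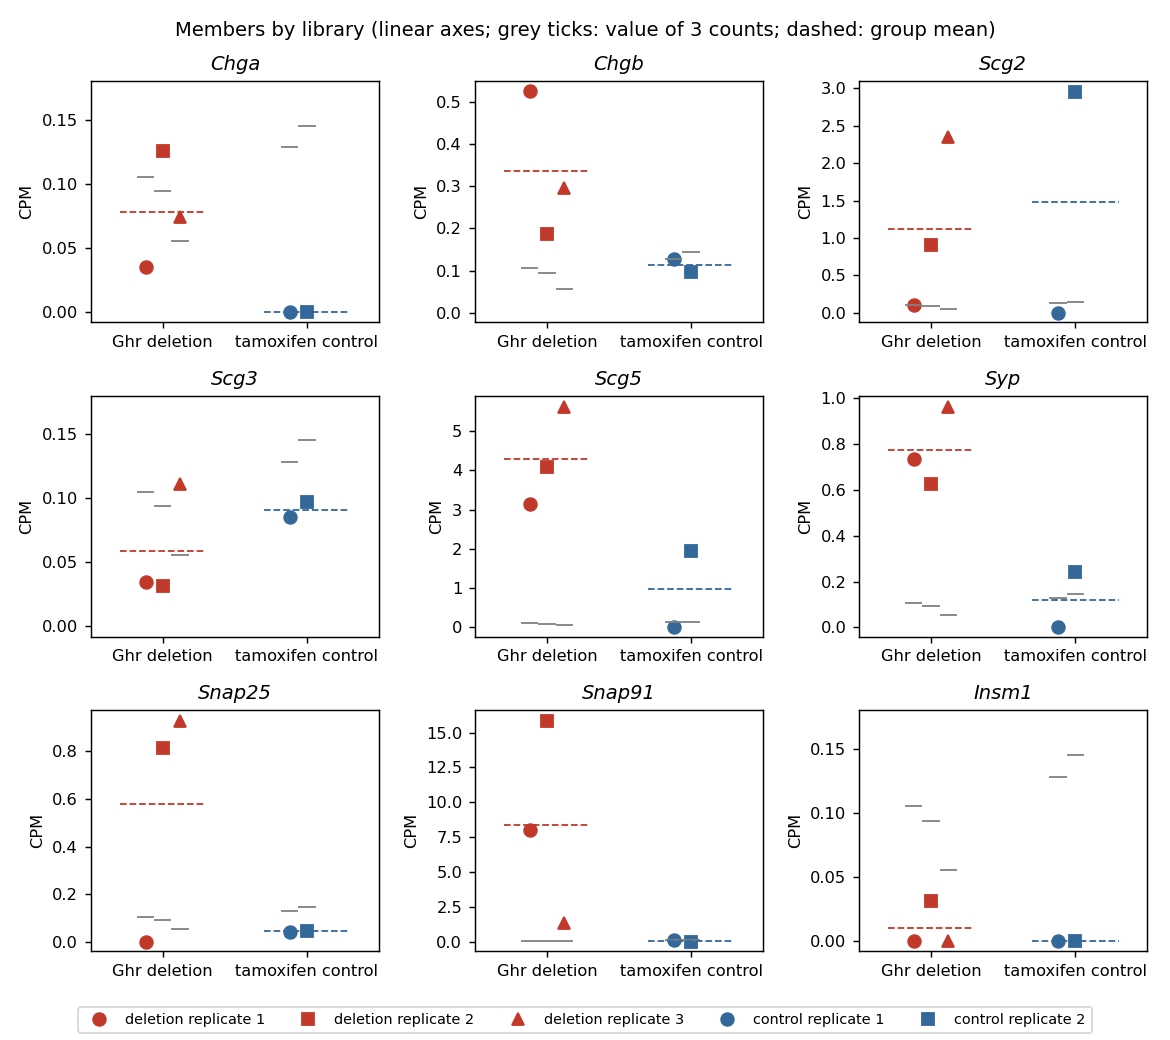
CPM of the 9 genes in each library, on linear axes that differ between panels; symbols stand for replicates, dashed lines for group means and grey ticks for the value of 3 counts in that library. Snap91 lies between 1.35 and 15.8 CPM in the deletion libraries and at 0.128 and 0 CPM in the controls, while Chga, Scg3 and Insm1 stay near or under the grey ticks in every library.

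The promoters of 3 granin genes hold forms of a short element that the choice of genes did not use. RefSeq start sites on build GRCm38.p6 gave a window of 250 bases upstream for 7 of the 9 genes, and none for Snap25 and Insm1. The cyclic AMP response element, whose letters are TGACGTCA on both strands, is a binding site of CREB-family factors and a known feature of granin promoters. Its full form was found in the Chgb and Scg2 windows, and the variant TGACGTAA in the Chga window, with both strands searched. Of all 32851 promoter windows, 1.55% held the full form and 0.447% the variant. As the element was already known from granin promoters, nothing is read from these shares. The short stretches around these elements are shown 5′ to 3′ on the gene's strand, with the element in capitals. They show it close upstream of the RefSeq start of 3 granin genes. The Chgb and Scg2 stretches lie inside the GENCODE spans given below for these genes, whose starts are further upstream.
Chga, chr12:102554886-102554915, plus strand: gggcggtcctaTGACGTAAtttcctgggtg
Chgb, chr2:132781559-132781588, plus strand: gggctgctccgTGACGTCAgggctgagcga
Scg2, chr1:79440076-79440105, minus strand: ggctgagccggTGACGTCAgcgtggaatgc
The element began 44 bases upstream of the RefSeq start in Chga, 72 in Chgb and 68 in Scg2. The short core TGACG, which the longer forms contain, was present in 5 of the 7 windows and in 17.8% of all windows. Neither Snap91 nor Syp held it.

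Snap91 and Scg5, the 2 members of highest mean CPM, had windows of unlike base composition. The 250 bases upstream held 26 CG dinucleotides in Snap91 and 5 in Scg5, against a median of 6 over all windows. The stretches from 150 to 51 bases upstream are shown so that both can be compared, with each CG in capitals.
Snap91, chr9:86880759-86880858, minus strand: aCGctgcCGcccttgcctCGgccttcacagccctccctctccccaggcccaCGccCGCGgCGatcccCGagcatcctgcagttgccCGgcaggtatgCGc
Scg5, chr2:113829142-113829241, minus strand: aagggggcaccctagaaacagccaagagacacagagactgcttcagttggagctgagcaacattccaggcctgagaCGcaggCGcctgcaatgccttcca
These printed stretches held 10 CG dinucleotides in Snap91 and 2 in Scg5.

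Among the granins, chromogranin A, the serum and tissue marker most used for neuroendocrine cells, was close to absent. Chga (ENSMUSG00000021194, GRCm38 chromosome 12, 102554969 to 102565028) had 1, 4 and 4 counts in the deletion libraries and 0 and 0 in the controls. Chromogranin B, its partner in granule cores, was also low. Chgb (ENSMUSG00000027350, chromosome 2, 132781278 to 132795079) had 15, 6 and 16 counts in the deletion libraries and 3 and 2 in the controls, or 0.525, 0.188 and 0.297 CPM against 0.128 and 0.0967 CPM. All 3 deletion libraries were above both controls, although each control stood at or under 3 counts. Pooled by group, Chgb had 37 counts in the deletion libraries and 5 in the controls, a ratio of CPM of 2.85 with an exact 95% counting interval of 1.12 to 9.29. Such intervals cover counting error only and not the spread between mice.

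Secretogranin II, the precursor of the neuropeptide secretoneurin, varied more within the groups than between them. Scg2 (ENSMUSG00000050711, chromosome 1, 79434669 to 79440120) had 3, 29 and 127 counts in the deletion libraries and 0 and 61 in the controls. Its CPM of 0.105, 0.908 and 2.35 in the deletion libraries overlapped the 0 and 2.95 CPM of the controls, with control replicate 2 the highest of all. The fitted log2 fold change was -0.37 (SE 1.68), and without control replicate 1 it was -1.38. Without deletion replicate 1 it was 0.17, so the direction rests on single libraries. Secretogranin III, a granule membrane adaptor that binds chromogranin A, had 1, 1 and 6 counts in the deletion libraries and 2 and 2 in the controls. This gene (Scg3, ENSMUSG00000032181, chromosome 9, 75643189 to 75684056) was over the floor in deletion replicate 3 alone.

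Scg5 encodes 7B2, the chaperone that keeps proprotein convertase 2 from acting before the granule matures. It was the granule gene with the most counts among the 9. Scg5 (ENSMUSG00000023236, chromosome 2, 113776362 to 113829121) had 90, 130 and 303 counts in the deletion libraries, against 0 and 40 in the controls. That is 3.15, 4.07 and 5.62 CPM in the deletion libraries and 0 and 1.93 CPM in the controls, so all deletion libraries lay above both controls and the controls differed widely from each other. Means were 4.28 ± 1.24 CPM in the deletion libraries (SD, n = 3) and 0.967 ± 1.37 CPM in the controls (SD, n = 2). The fitted log2 fold change was 2.15 (SE 1.37), and without control replicate 1, the library at 0, it was 1.14. In the authors' TPM, which are scaled to gene length and to the whole library, the order changed: 1.69, 2.66 and 10.5 in the deletion libraries against 0 and 1.95 in the controls, so that deletion replicate 1 lay below control replicate 2.

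Synaptophysin, the membrane protein most used to mark small vesicles, was present at low level in every deletion library. Syp (ENSMUSG00000031144, chromosome X, 7638471 to 7653256) had 21.2, 20.04 and 52.5 expected counts in the deletion libraries and 0 and 5.05 in the controls. The values in CPM were 0.736, 0.626 and 0.964 against 0 and 0.242, with no overlap of the groups. The fitted log2 fold change was 2.68 (SE 1.20), and 1.67 without control replicate 1. An antisense gene, Gm14703, overlaps Syp and had 6.76, 8.96 and 4.50 expected counts in the deletion libraries against 7.00 and 3.95 in the controls. As the strand setting is not given in the sources used here, some of the Syp reads may belong to it.

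Snap25, the plasma membrane SNARE of neurons and endocrine cells, was found in 2 of the 3 deletion libraries. Its counts (ENSMUSG00000027273, chromosome 2, 136713453 to 136782428) were 0, 26 and 50 in the deletion libraries and 1 and 1 in the controls. Deletion replicate 1 and both controls were thus under the floor and the groups overlapped, while deletion replicates 2 and 3 reached 0.814 and 0.927 CPM. The pooled counts of 76 in the deletion libraries and 2 in the controls gave a CPM ratio of 14.6, with an exact counting interval of 3.91 to 123. The fitted log2 fold change was 3.58 (SE 1.80), and 4.17 without deletion replicate 1. The spread within the deletion group, 0.580 ± 0.506 CPM (SD, n = 3), was nearly as large as its mean, and the controls averaged 0.0456 ± 0.00396 CPM (SD, n = 2).

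More neuron genes were over the floor in the same 2 libraries as Snap25 than in the rest. In these 2 libraries, deletion replicates 2 and 3, the floor was also lowest, at 0.0939 and 0.0556 CPM. It was 0.105 CPM in deletion replicate 1, and 0.128 and 0.145 CPM in control replicates 1 and 2. The part of the floor in the numbers that follow was not tested. Of 20 neuron and autonomic ganglion genes, those with more than 3 counts numbered 7, 17 and 18 in deletion replicates 1, 2 and 3, against 9 and 6 in the controls. Genes chosen from this list after their values were seen included the neuronal tubulin Tubb3, with 0, 14 and 23 counts in the deletion libraries against 1 and 1 in the controls. The axonal neurofilament gene Nefl had 0, 21 and 26 counts in the deletion libraries against 1 and 2 in the controls. Nos1, the nitric oxide synthase of nerves that relax smooth muscle, had 2, 24 and 58 counts in the deletion libraries against 0 and 1 in the controls. Other genes of the list went otherwise. Slc6a2, the noradrenaline transporter, had 60, 19 and 80 counts in the deletion libraries and 78 and 85 in the controls, which in CPM put all deletion libraries below both controls. Nefh, a heavy neurofilament gene, was highest in deletion replicate 1, with 2739, 486 and 44 counts in the deletion libraries against 6 and 75 in the controls, and the autonomic factor gene Hand2 was highest in control replicate 1. The sum over the list was 201, 162 and 116 CPM in the deletion libraries and 131 and 87.5 CPM in the controls. That sum was led by Gata3, Ret and Nefh, of which Gata3 is also an epithelial gene. Listed at 0 were 8, 2 and 0 of the 20 genes in the deletion libraries and 7 and 6 in the controls, Chat among those at 0 in both controls. The part that nerve content played in the Snap25, Scg2 or Syp values was not tested.

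**Figure D2:**
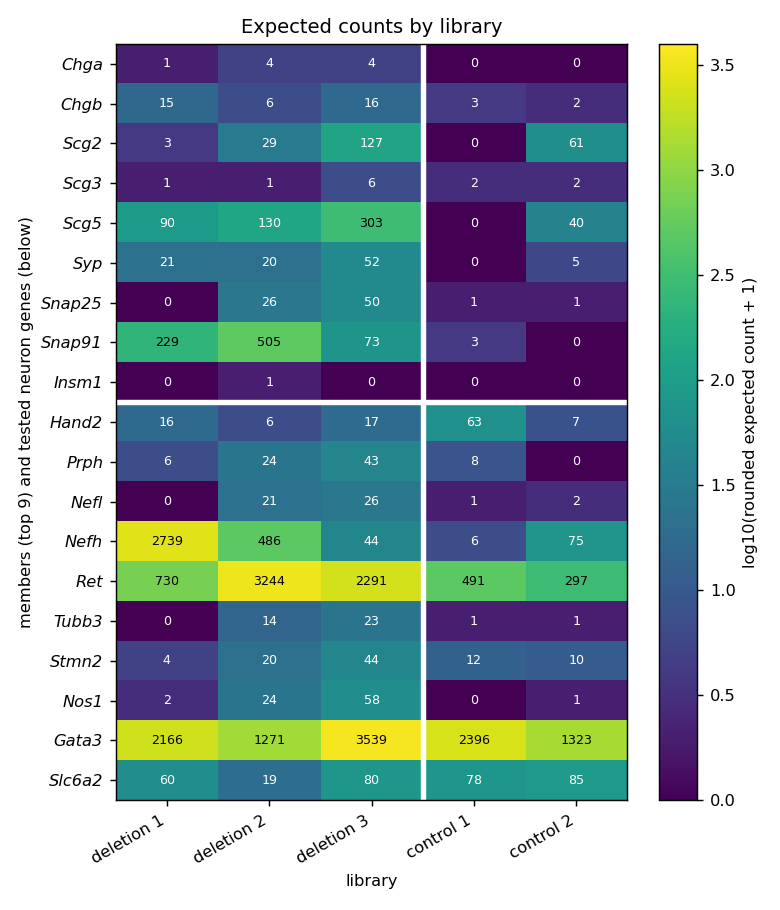
Expected counts, rounded, of the 9 genes (top) and of the 10 neuron and autonomic ganglion genes that passed the filter on low counts (bottom) in each library; columns are libraries and colour is log10 of the count plus 1. Tubb3, Nefl and Nos1 have 14 or more counts in deletion replicates 2 and 3, as Snap25 does, and at most 2 in deletion replicate 1 and both controls, whereas Snap91 has 229 counts in deletion replicate 1.

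Schwann cell and glial genes did not show that pattern. Of 10 such genes 9, 6 and 8 had more than 3 counts in the deletion libraries, against 6 and 9 in the controls. S100b, a calcium-binding protein of glia, had 0.505 ± 0.189 CPM in the deletion libraries (SD, n = 3) and 0.373 ± 0.225 CPM in the controls (SD, n = 2). The sum over the 10 genes was 204, 477 and 271 CPM in the deletion libraries and 253 and 190 CPM in the controls, led by the receptor gene Erbb3, which epithelia also express.

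Snap91 encodes AP180, the neuronal protein that gathers clathrin on membrane taken back from synapses. It differed most between the groups among the 9 genes. Snap91 (ENSMUSG00000033419, chromosome 9, 86765923 to 86880654, minus strand) had 229, 505 and 73 counts in the deletion libraries, against 3 and 0 in the controls. That is 8.02, 15.8 and 1.35 CPM in the deletion libraries and 0.128 and 0 CPM in the controls, so every deletion library was above the floor and neither control was. Pooled by group there were 807 counts against 3, a CPM ratio of 104 with an exact counting interval of 35.3 to 503. The spread among the deletion libraries was wide, at 8.39 ± 7.24 CPM (SD, n = 3), and the controls averaged 0.0641 ± 0.0907 CPM (SD, n = 2). The fitted log2 fold change was 6.89 (SE 1.55). Leaving out 1 deletion library gave 6.05 to 7.37, without control replicate 2 it was 5.99, and without control replicate 1 the remaining control is at 0, so no ratio is given.

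A gene model inside a Snap91 intron also had reads. Gm37941, a gene model of 2309 bases on the same strand (GRCm38 chromosome 9, 86784547 to 86786855), lies within Snap91 and overlaps 0 of its 46 annotated exons. It had 28, 66 and 1 counts in the deletion libraries and 0 and 0 in the controls, so the 2 libraries highest in Snap91 were highest here too. The neighbouring protein-coding genes did not follow. Prss35, the nearest gene on one side, had 1, 4 and 5 counts in the deletion libraries and 0 and 4 in the controls. On the other side, Ripply2 had 0 counts in every library. Beyond them, Cyb5r4 had 19.8, 17.0 and 27.8 CPM in the deletion libraries and 22.7 and 25.6 CPM in the controls, and Me1 9.81, 12.0 and 45.6 CPM against 4.75 and 25.9 CPM. The mean transcript length that RSEM assigned to Snap91 was 2246, 3160 and 1654 bases in the 3 deletion libraries, out of 10 annotated transcripts, so the mix of isoforms it estimated also varied.

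Snap91 and the neuronal genes Snap25, Tubb3 and Nefl were all high in deletion replicate 2, but parted in the other deletion libraries. Tubb3 and Nefl were picked after their values were seen. Nefh, of the same list, did not part from Snap91 in this way. It read 95.9, 15.2 and 0.815 CPM in the deletion libraries and 0.257 and 3.63 CPM in the controls. Deletion replicate 1, with 8.02 CPM of Snap91, had 0 counts of Snap25, Tubb3 and Nefl. Deletion replicate 3, with 1.35 CPM of Snap91, had 0.927, 0.426 and 0.482 CPM of these genes in that order. Deletion replicate 2 had 0.814, 0.438 and 0.657 CPM of them. Other markers moved with Snap91 in part: the vas deferens and epididymis list summed to 5147, 4358 and 34.4 CPM in the deletion libraries against 6.20 and 1601 CPM in the controls. Of its 6 genes 4, 3 and 3 had more than 3 counts in the deletion libraries against 2 and 3 in the controls, and Lcn5 had at most 2 counts in any library. Akr1b7, known for its high level in vas deferens epithelium, led that sum with 3482, 3248 and 9.25 CPM in the deletion libraries and 4.92 and 890 CPM in the controls. Control replicate 2 had 0 counts of Snap91 beside this Akr1b7 value and 711 CPM of Crisp1, a gene of the same list. Defb2, also of that list, went otherwise. It had 2.24, 1.19 and 0.185 CPM in the deletion libraries and 0 and 0.0967 CPM in the controls, so all deletion libraries lay above both controls. Crisp1 and Defb2 were picked after their values were seen. The part of such tissue in the Snap91 values was not tested.

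Insm1, the zinc finger factor that switches on granule genes in neuroendocrine lineages, was not detectable at this depth. Its counts (ENSMUSG00000068154, chromosome 2, 146221921 to 146225020) were 0, 1 and 0 in the deletion libraries and 0 and 0 in the controls. A count of 3 corresponds to at most 0.105 CPM in a deletion library and 0.145 CPM in a control.

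Between genes, levels were compared in TPM. Mean TPM over the deletion libraries were 4.94 for Scg5, 2.39 for Snap91 and 0.770 for Scg2, then 0.393 for Snap25 and 0.390 for Syp, with 0.127 or less for Chgb and the remaining 3 genes. Neighbours in this order were not separated beyond their spread: Scg5 ranged over 1.69 to 10.5 TPM in the deletion libraries and Snap91 over 1.75 to 3.31 TPM, and Snap91 exceeded Scg5 in replicates 1 and 2. In control replicate 2 the members over the floor were Scg5 at 1.95, Scg2 at 1.36 and Syp at 0.10 TPM.

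Relatives of these proteins that most cells express (Picalm, Snap23, Snap29, Snap47 and Sypl) were far more abundant, whereas Synpr and Insm2 were as scarce as the members. Of the 6 relatives tested 5 overlapped between the groups and 1 lay above both controls. Over all genes tested 9.43% lay above both controls and 10.2% below, so nothing is read from this count. Picalm, which does the work of AP180 outside neurons, read 156, 205 and 160 CPM in the deletion libraries and 209 and 181 CPM in the controls. Snap23, the SNARE of non-neuronal cells, had 31.5 ± 4.48 CPM in the deletion libraries (SD, n = 3) and 35.5 ± 1.96 CPM in the controls (SD, n = 2). Snap29 and Snap47, further members of that family, had 30.0 ± 2.80 and 20.6 ± 4.64 CPM in the deletion libraries and 29.8 ± 0.570 and 18.3 ± 1.52 CPM in the controls. Sypl, the broadly expressed relative of synaptophysin, had 251 ± 127 CPM in the deletion libraries and 154 ± 3.22 CPM in the controls, with all deletion libraries above both controls. Synpr, a neuronal relative, had 0.598 ± 0.605 CPM in the deletion libraries and 0.993 ± 0.652 CPM in the controls, and Insm2 had 2 to 7 counts in every library. None of the 6 relatives tested passed in edgeR's quasi-likelihood test (Benjamini-Hochberg adjusted p of 0.995 or more). DESeq2 passed 0 of them, and 0 had p under 0.05 before adjustment. Within a library, Snap91 reached 7.09%, 6.90% and 1.53% of the Picalm TPM in the deletion libraries and 0.0876% and 0% in the controls. Snap25 reached at most 3.40% of Snap23, and Syp at most 0.541% of Sypl.

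**Figure D3:**
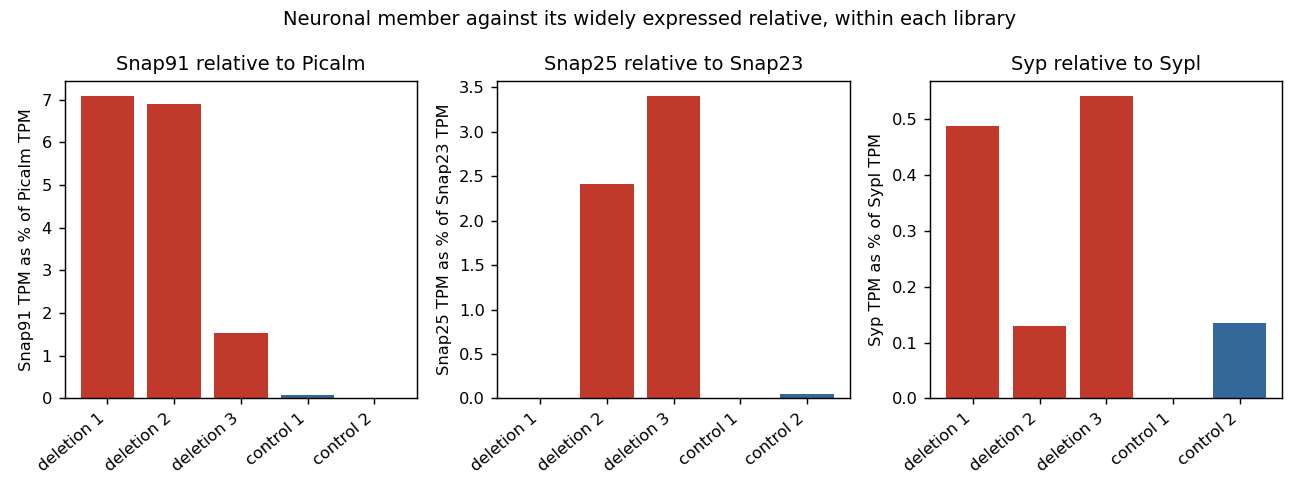
TPM of Snap91, Snap25 and Syp as a percentage of the TPM of a widely expressed relative in the same library (Picalm, Snap23 and Sypl); bars are single libraries, red for Ghr deletion and blue for tamoxifen control, and each axis starts at 0. Snap91 stands at 1.53% to 7.09% of Picalm in the deletion libraries and at most 0.0876% in the controls, while Syp in deletion replicate 2 (0.129%) lies close to control replicate 2 (0.135%).

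Other genes of granules, vesicles and neuroendocrine lineage were then read in the fit over all genes. In 4 lists with 94 genes, 55 passed the filter, and 0 of them passed in edgeR's quasi-likelihood test at an adjusted p under 0.05, in either direction. Over all 18615 genes 0 passed too (0%), while 4.92% of them, 915 genes, reached p under 0.05 without adjustment. DESeq2 passed 164 genes (0.899% of those to which it gave an adjusted p), of which 0 were among the 55. At an unadjusted p under 0.05 there were 4 higher genes among the 55, Vip, Sv2b, Rab3c and Uchl1, and 1 lower gene, Isl1, against 1.69% higher and 3.23% lower over all genes tested. All deletion libraries lay above both controls for 7 of the 55 genes and below both for 2, against 9.43% and 10.2% of all genes tested. By fold change 30 were higher and 25 lower, with a median log2 fold change of 0.24, against 0.0045 over all genes tested.

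Among dense core granule genes, 15 of 30 passed the filter and 10 of 30 stayed at 3 counts or fewer in every library. The genes of granules that many epithelia also use were abundant, and their spread within the groups was too wide to tell whether the groups were alike. Cpe, a carboxypeptidase that trims prohormones, had 73.5 ± 35.0 CPM in the deletion libraries and 54.7 ± 42.3 CPM in the controls. Cadps2, a priming factor for granule release, had 58.7 ± 14.1 CPM in the deletion libraries and 77.6 ± 20.9 CPM in the controls, and the small GTPase gene Rab3d had 135 ± 76.1 and 146 ± 74.5 CPM. The neuropeptide gene Vip, by contrast, had 0, 63 and 51 counts in the deletion libraries and 0 and 0 in the controls. Syt4, a granule synaptotagmin, had 0, 36 and 42 counts in the deletion libraries and 0 and 1 in the controls. Both were thus over the floor in the 2 libraries in which Snap25 was, and in no other, and neither passed (edgeR, adjusted p = 0.991 for each). Pcsk2, the convertase that 7B2 guards, had 0, 15 and 4 counts in the deletion libraries and 0 and 1 in the controls.

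Of 37 synaptic vesicle and release genes, 27 passed the filter, 15 with a higher and 12 with a lower fold change. The general release factors were even: Unc13b had 121 ± 31.9 CPM in the deletion libraries and 123 ± 6.83 CPM in the controls, and the fusion ATPase gene Nsf had 36.0 ± 2.87 and 32.3 ± 2.23 CPM. Vamp2, a vesicle SNARE, had 35.4 ± 5.85 CPM in the deletion libraries and 29.1 ± 4.60 CPM in the controls. The genes of smallest p were Sv2b, a synaptic vesicle glycoprotein, and Rab3c, a vesicle GTPase. Sv2b read 8.97, 24.8 and 7.32 CPM in the deletion libraries and 1.24 and 4.55 CPM in the controls, a log2 fold change of 2.24 (SE 0.809; edgeR, adjusted p = 0.991). Rab3c had 1.97 ± 1.04 CPM in the deletion libraries and 0.533 ± 0.275 CPM in the controls, a log2 fold change of 1.87 (SE 0.735; edgeR, adjusted p = 0.991). Both had all deletion libraries above both controls, and neither passed.

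**Figure D4:**
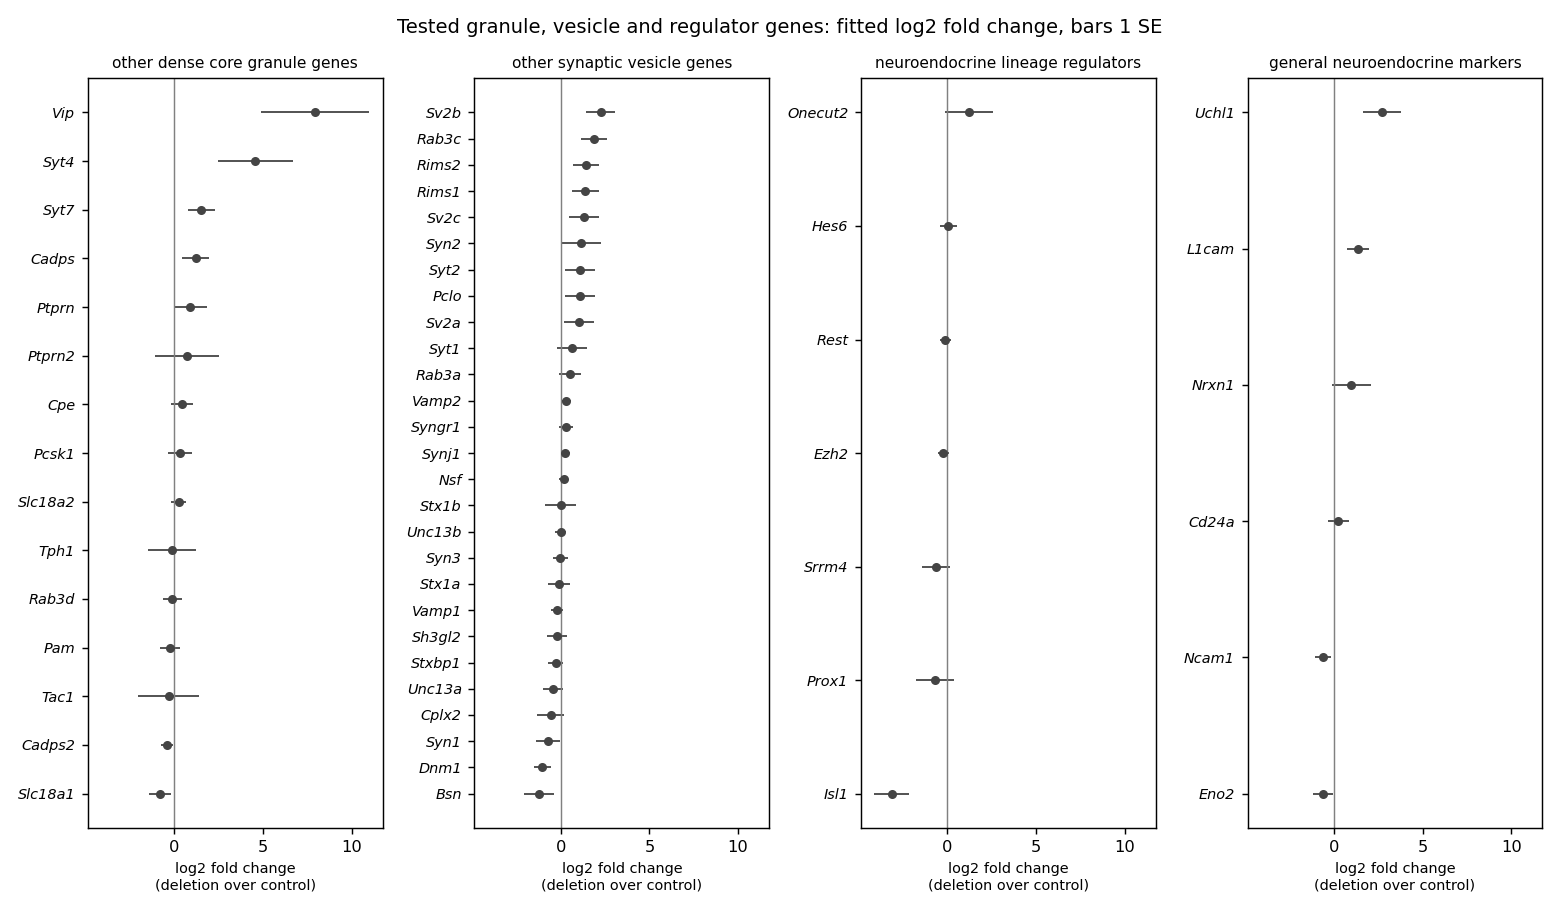
Fitted log2 fold change, deletion over control, of the 55 tested genes in 4 lists (1 gene per row, with bars of 1 SE derived from edgeR's F statistic). Positive values mean higher in the deletion libraries. No gene passed at an adjusted p under 0.05; the widest bar belongs to Vip, which has 0 counts in both controls, so its fitted value depends on the prior count and is no bound.

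The regulators of a neuroendocrine fate were scarce. Of 20 such genes 7 passed the filter and 8 had 3 counts or fewer in every library, Neurod1, Foxa2, Nkx2-2 and Dll3 among them. Rest, the repressor that keeps neuronal genes silent outside neurons, was well expressed at 68.4 ± 18.2 CPM in the deletion libraries (SD, n = 3) and 74.4 ± 4.10 CPM in the controls (SD, n = 2), with a log2 fold change of -0.12 (SE 0.310; edgeR, adjusted p = 0.997). Ezh2, a histone methyltransferase, had 12.6 ± 1.83 CPM in the deletion libraries and 14.9 ± 1.91 CPM in the controls, and the Notch-related factor Hes6 4.63 ± 0.830 and 4.43 ± 1.89 CPM. Isl1, a factor of neuronal and endocrine lineages, went the other way from the members above, at 0.105, 0.157 and 0.741 CPM in the deletion libraries and 4.75 and 1.40 CPM in the controls (log2 fold change -3.14, SE 0.985; edgeR, adjusted p = 0.991). Onecut2 had 0.275 ± 0.155 CPM in the deletion libraries and 0.121 ± 0.171 CPM in the controls.

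General neuroendocrine markers gave no common direction. Uchl1, a neuronal ubiquitin hydrolase, read 1.23, 1.66 and 9.43 CPM in the deletion libraries and 0.727 and 0.532 CPM in the controls (log2 fold change 2.70, SE 1.07; edgeR, adjusted p = 0.991). Its highest value was in deletion replicate 3, in which the urothelial list also summed to 187 CPM, against 47.0 and 68.3 CPM in deletion replicates 1 and 2 and 80.0 and 25.2 CPM in the controls. That list had 3, 3 and 6 of 6 genes over the floor in the deletion libraries and 3 and 3 in the controls, with Upk3a at 0 in all libraries but deletion replicate 3, and its part in the Uchl1 value was not tested. L1cam, a neural adhesion molecule also made by epithelia, had 50.1 ± 20.6 CPM in the deletion libraries and 19.6 ± 14.3 CPM in the controls, with overlapping groups. Ncam1 had 53.4 ± 27.7 CPM in the deletion libraries and 82.1 ± 16.5 CPM in the controls, and Cd24a, a surface protein of many epithelia, 1175 ± 504 and 996 ± 511 CPM.

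For the 3 members that ranged most widely over the libraries, the genes nearest in pattern were found by the root mean square difference of centred log2 CPM over the 5 libraries, among all genes tested. Before log2 was taken, 0.5 was added to each count. Each of the 3 members had a control at 0 counts, so the size of its range depends on that 0.5. Snap91 ranged over 9.35 log2 units. Its nearest gene with a family name was the protocadherin Pcdhga10, at a distance of 1.25, between the predicted genes Gm2260 (1.18) and Gm6061 (1.36). Pcdhga10 had 20, 110 and 36 counts in the deletion libraries and 0 and 0 in the controls. Scg5 had much closer matches in Vwc2 (0.363), Dmrt2 (0.395) and Atp6v1g3 (0.407). Atp6v1g3, a proton pump subunit, read 41.8, 80.8 and 51.3 CPM in the deletion libraries and 0.257 and 18.3 CPM in the controls, and shared with Scg5 the near absence from control replicate 1. Scg2 was nearest to Ces1f (0.485), Gm14419 (0.526) and Rprm (0.541), all of which were highest or second highest in control replicate 2.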

How the data were processed

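Stranded total RNA libraries were made from flash frozen tissue, per the labels' protocols. RSEM 1.3.0, STAR 2.5.3a, bcl2fastq 2.20.422 and build GRCm38 are listed in the submitters' processing notes. Strand setting and annotation release were not given in the sources used here. Per the file headers, the authors deposited RSEM's expected counts, which are not normalized, and its TPM, scaled to gene length and library. Symbols came from a gene name table (99.5% of IDs matched) and positions from GENCODE M21 for GRCm38.

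Expected counts were rounded, filtered with filterByExpr (18615 genes left) and fitted with edgeR 4.0.16 under R 4.3.3 (TMM, robust glmQLFit, glmQLFTest; group alone in the design; all 5 libraries). A call needed an adjusted p (Benjamini-Hochberg) under 0.05. The edgeR test gives no SE, so its SE here is the absolute log2 fold change divided by the square root of the F statistic. DESeq2 1.42.0, limma-voom (limma 3.58.1), other scalings, no filter, a replicate block and left-out libraries were tried. CPM use TMM-adjusted totals. Groups came from the sample titles. The members and lists were chosen with earlier results of these data known. Named genes were the members, their relatives, and from each pathway list those called, the 3 of highest mean CPM and the 2 of smallest p. Pcsk2, Tubb3, Nefl, Chat, Neurod1, Foxa2, Nkx2-2, Dll3, Pbsn, Spink1, Fkbp5, Slc6a2, Hand2, Lcn5, Crisp1, Defb2, Upk3a and the genes around Snap91 were named after their values were seen. Some genes of the lists are not reported here.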

Additional observations from a re-analysis of the deposited data

How the results depend on the processing

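No gene of the 4 pathway lists passed under any of the 12 alternatives run. Over all genes, 0 passed in edgeR and 0 in limma-voom, while DESeq2 passed 164, edgeR with total library size only 46, and edgeR with the replicate number as a block 8. Leaving out 1 library gave 0 to 48 calls, the 48 without control replicate 2, and leaving out control replicate 1 and deletion replicate 3 together gave 85. The cause was not tested. The labels give replicate numbers and no pairing of libraries. Deviations of same-numbered libraries from their group means correlated at 0.107 for number 1 and -0.131 for number 2 across genes. With 2 controls the deviations of 1 mirror those of the other, so these values cannot decide on a pairing. The blocked count is therefore given here alone. The number of the 9 members above both controls in all deletion libraries was 5, and 4 to 6 under the alternatives, 4 by TPM, where Scg5 overlapped. Log2 differences of Chgb (0.80 to 1.97), Scg5 (0.89 to 10.21), Syp (1.47 to 7.75), Snap25 (1.68 to 4.17) and Snap91 (4.52 to 11.33) stayed positive under every alternative that gave a value. The lowest values of Chgb, Snap25 and Snap91 are differences of mean log2(TPM + 0.1), not fitted fold changes. The highest of Scg5, Syp and Snap91 come from fits whose only control was at 0 and are no measure of size. Scg2 was below 0 in 9 alternatives, down to -2.53, and above 0 in 4: 0.17 without deletion replicate 1, 0.29 by TPM, 1.75 by limma-voom and 8.29 without control replicate 2, where the only control left was at 0. Chgb without deletion replicate 1 or 3, and Snap25 without deletion replicate 2 or 3, fell short of the filter and have no value. Chga, Scg3 and Insm1 had at most 6 counts in any library, too few for a fold change.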
